A study of Mus musculus with 3 samples.

Results

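The genes described here encode the interleukins and their receptors, taken as the mouse protein-coding genes whose symbol is Il followed by a digit. Of 83 genes with such a symbol, 11 were left out by name (those starting with Il1r or Il18r, and Il5ra), which gave 72 members of 21887 protein-coding genes. They comprised 38 ligands, 31 receptor chains and 3 genes that are neither, namely Il18bp, which encodes a secreted binder of IL-18, Il4i1, which encodes an amino acid oxidase, and Il4i1b. For each gene the accessible regions in its locus were counted, a locus reaching 10 kb beyond each end of the gene span in the mouse build mm10.

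Accessible chromatin was mapped by ATAC-seq, which finds open DNA by the insertions of a transposase, in the ECOMG line of mouse myeloid progenitors. In every library NIPBL, the loader of cohesin, carried the FKBP12F36V tag (genotype FKBP12F36V_NIPBL), through which the small molecule dTAG marks the protein for breakdown, and every culture received estradiol and GM-CSF. The 3 groups were 0 h without dTAG, 6 h with dTAG and 72 h with dTAG, with 1 library of 50000 cells each. No difference below has a replicate check and no test was run, and because dTAG, culture time and library differ together, they cannot be told apart. NIPBL protein was not measured in the files used here, and the labels do not say whether the tagged line is 1 clone.

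Interleukins are secreted proteins by which blood cells and tissues signal to each other. Most act through receptors of several chains, many of which are shared: the common gamma chain serves the receptors of IL-2, IL-4, IL-7, IL-9, IL-15 and IL-21, gp130 those of the IL-6 family, and IL-17RA those of the IL-17 family. Receptor binding activates Janus kinases and STAT factors for most families, and MyD88 with IRAK kinases for the IL-1 family. In myeloid cells IL-1 beta is a main product of inflammatory activation, and the IL-10 receptor carries a signal that restrains it.

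Promoters are shown for 5 members whose start-site regions carry the differences described below or whose locus held the most regions. Il1a had a region at its start at 72 h and not before, Il13 at 0 h and 6 h, Il20rb at 6 h, and Il1b and Il16 in all 3 lists. For Il16 this was the inner annotated start at 83655495, whose promoter is shown. Its annotated starts at 83732398 and 83735539 had no such region in any list. Each sequence gives the 250 bases before an annotated transcript start, 5′ to 3′, from RefSeq for GRCm38.p6, the assembly of mm10, with matches to the motifs searched in capitals.
Il1a, chr2:129309973-129310222, minus strand: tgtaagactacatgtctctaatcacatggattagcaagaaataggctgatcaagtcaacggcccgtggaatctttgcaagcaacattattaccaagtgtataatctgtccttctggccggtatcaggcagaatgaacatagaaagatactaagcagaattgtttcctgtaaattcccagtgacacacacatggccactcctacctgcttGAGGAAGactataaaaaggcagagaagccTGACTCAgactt
Il1b, chr2:129371140-129371389, minus strand: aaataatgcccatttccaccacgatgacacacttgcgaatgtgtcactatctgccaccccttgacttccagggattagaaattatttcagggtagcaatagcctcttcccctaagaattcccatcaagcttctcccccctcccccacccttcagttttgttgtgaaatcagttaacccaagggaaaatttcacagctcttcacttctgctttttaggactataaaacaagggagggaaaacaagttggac
Il13, chr11:53634703-53634952, minus strand: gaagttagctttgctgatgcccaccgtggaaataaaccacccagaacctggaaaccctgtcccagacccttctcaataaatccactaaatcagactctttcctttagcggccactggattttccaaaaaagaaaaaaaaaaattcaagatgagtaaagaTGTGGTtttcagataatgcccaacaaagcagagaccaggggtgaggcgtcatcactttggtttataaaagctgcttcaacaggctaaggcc
Il20rb, chr9:100486474-100486723, minus strand: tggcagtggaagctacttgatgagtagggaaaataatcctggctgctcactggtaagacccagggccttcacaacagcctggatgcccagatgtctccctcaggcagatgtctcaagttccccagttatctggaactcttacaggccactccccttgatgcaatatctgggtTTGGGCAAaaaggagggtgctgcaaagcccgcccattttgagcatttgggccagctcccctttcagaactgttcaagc
Il16, chr7:83655496-83655745, minus strand: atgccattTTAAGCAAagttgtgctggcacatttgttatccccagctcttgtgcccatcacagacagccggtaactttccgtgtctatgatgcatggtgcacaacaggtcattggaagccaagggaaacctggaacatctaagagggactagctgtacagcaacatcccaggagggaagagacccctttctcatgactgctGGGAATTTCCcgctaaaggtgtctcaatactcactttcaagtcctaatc
The motifs were searched on both strands as AP-1 TGANTCA, C/EBP TTNNGCAA, PU.1 GAGGAAG, RUNX TGTGGT, NF-kB GGGA, any base and TTTCC, STAT TTCNNNGAA and IRF GAAA, any pair of bases and GAAA. In the Il1a promoter the capitals mark a PU.1 match from -41 to -35 and an AP-1 match from -12 to -6 relative to the start. The Il1b window held no match. The Il13 window held a RUNX match at -91 to -86, that of Il20rb a C/EBP match at -78 to -71, and that of Il16 a C/EBP match at -242 to -235 and an NF-kB match at -49 to -40. A match describes letters and is no evidence of binding.

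Over all 64 promoter windows of the 55 members in the RefSeq table, 12 held the AP-1 letters (18.8%), against 6.14% of the 21255 windows of all coding genes. RUNX letters stood in 20.3% of the members' windows and 12.4% of all windows, C/EBP letters in 15.6% and 9.09%, STAT letters in 9.38% and 6.58%, and NF-kB letters in 3.12% and 0.372%, the members' share being 2 of 64 windows. PU.1 letters stood in 7.81% and 10.3%, and IRF letters, again in 2 member windows, in 3.12% and 2.96%. Base composition differs between the sets: member windows with a start-site region in all 3 lists had a median GC content of 52.6% and a median of 3.5 CpG sites, against 60% and 16 CpG sites in the windows of all coding genes with such a region. Member windows with no such region in any list had a median GC content of 49.2%, and those of all coding genes 47.6%.

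At 0 h 182233 regions were listed in all, with 178055 at 6 h and 145044 at 72 h. The step between fold values gave a background of 0.323, 0.327 and 0.281 piled-up fragments (1, 1.01 and 0.87 relative to 0 h), the only measure of depth used here. The lowest summit listed was 3 fragments in each list. A region missing from a list can therefore be present below that height. Loci of 9 myeloid progenitor markers held 142, 133 and 107 regions at 0 h, 6 h and 72 h, those of 7 mature neutrophil markers 46, 52 and 75, and those of 5 monocyte or macrophage markers 49, 50 and 76. Of these 5, 3 held more at 72 h than at 0 h and 2 fewer. Adgre1 made most of the higher total, with 13, 13 and 42 regions, while Ly86 held 9, 6 and 6 and Cd68 11, 12 and 9. Of the 9 progenitor markers, 7 held fewer at 72 h than at 0 h, 1 more and 1 an equal count. Elane held 24, 20 and 13 regions and Prtn3 27, 23 and 16. Their highest folds were the same in each list, so regions may be counted in both. The progenitor receptor gene Kit held 7, 5 and 0 regions, Spi1 29, 27 and 29 and Myb 18, 17 and 19, and no start-site region was listed for Mpo. Loci of other lineages held regions too (T cell 30, 30 and 26, B cell 41, 34 and 24, mast cell or basophil 27, 31 and 22, erythroid 33, 32 and 23, epithelial 30, 28 and 20), while Hbb-b1 and Fcer1a were at 0 in every list. The part of these marker shifts in the differences below was not tested, and in bulk libraries fewer cells of a type and less open chromatin per cell cannot be told apart.

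Interleukin and receptor loci together held 497 different regions at 0 h, with 506 at 6 h and 450 at 72 h. That was 0.273% (0.249 to 0.298), 0.284% (0.26 to 0.31) and 0.31% (0.282 to 0.34) of each list, with exact Clopper-Pearson 95% intervals that cover counting error only. Counted per gene, the loci held 516, 525 and 466 regions, with a median of 6, 6.5 and 5.5 per locus against 7, 7 and 5 over all coding genes. The span of the members was shorter than that of coding genes in general, with a median of 11884.5 bp against 17169 bp, and 33 of the 72 had no other coding gene in their locus. Regions at the ends of other genes made up 62, 66 and 63 of the members' regions.

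The loci with the most regions at 0 h were those of Il16, Il17ra and Il12rb1. Il16, a chemoattractant of CD4+ cells, held 22, 23 and 23 regions at 0 h, 6 h and 72 h. Il17ra, the chain common to IL-17 receptors, held 20, 21 and 26, and Il12rb1, shared by the IL-12 and IL-23 receptors, held 20, 17 and 17. Il6ra, the ligand-binding chain for IL-6, held 17, 23 and 21. At the other extreme 3 members had no region in any list, Il1f8 (IL-36 beta), Il13ra2 (the decoy receptor of IL-13) and Il11ra2. They are 4.17% of the members, against 13.3% of all coding genes with none. Il11ra2 is a near-copy of Il11ra1, so its reads may not have been placed uniquely and its 0 is uncertain.

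**Figure D1:**
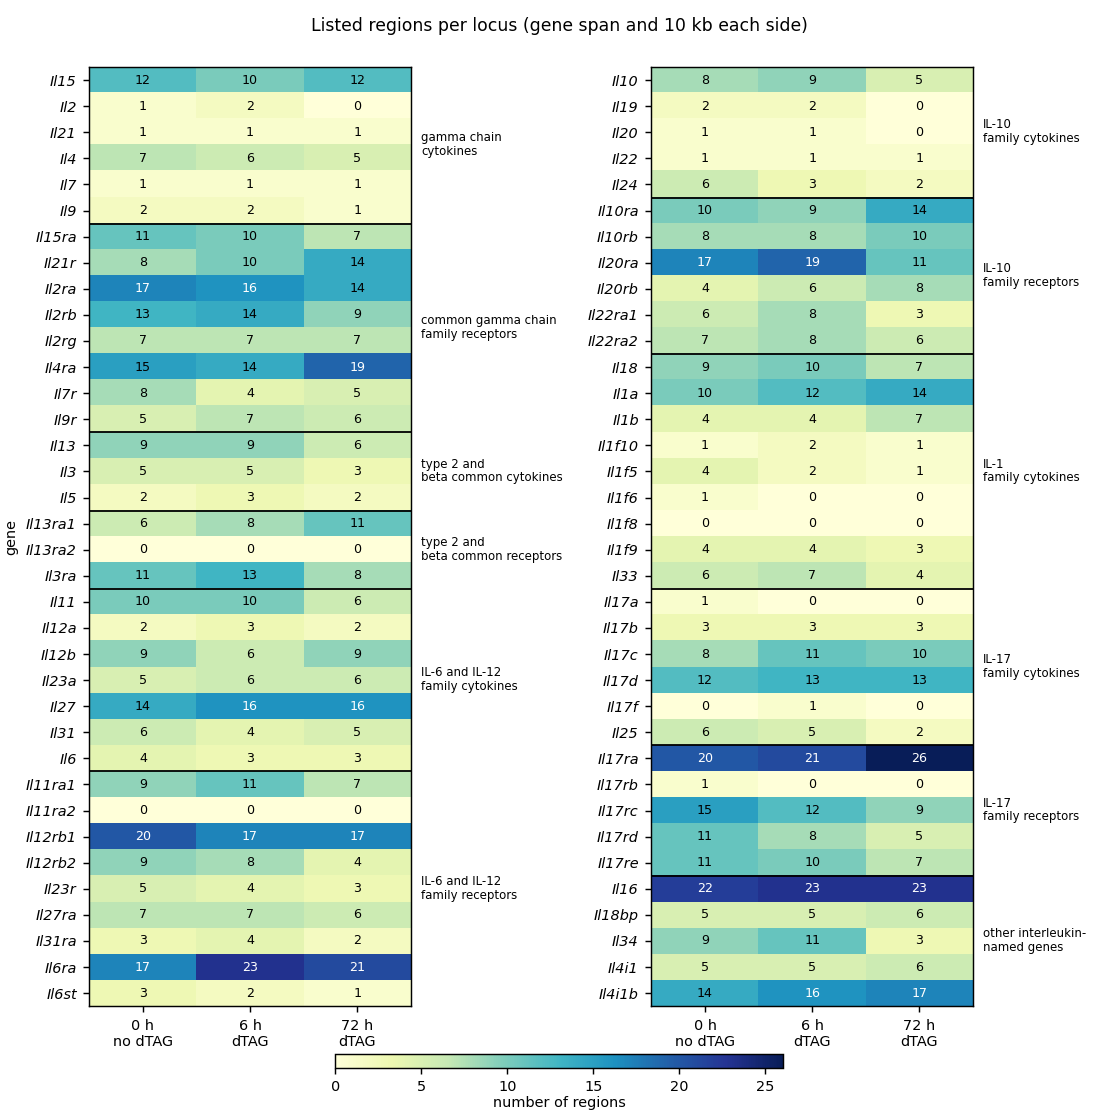
Regions listed in each of the 72 loci at 0 h without dTAG, 6 h with dTAG and 72 h with dTAG, grouped by family, with the number written in each cell and shown by colour. Counts run from 0 in every list at Il1f8, Il13ra2 and Il11ra2 to 26 at Il17ra at 72 h, and cytokine loci hold mostly pale cells beside the receptor loci.

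Start-site regions, those within 1 kb of an annotated transcript start or, for 17 members without one in the table, of either gene end, were listed for 44 members at 0 h, 42 at 6 h and 38 at 72 h. These are 61.1%, 58.3% and 52.8% of the members, against 62.1%, 61.7% and 57.6% of all coding genes. In all 3 lists 36 members had one (50%, against 56.6% of coding genes), and in none 24 (33.3%, against 35.7%). The common gamma chain receptors were the family with one at every gene and every time, 8 of 8. They are Il2ra, Il2rb, Il2rg, Il4ra, Il7r, Il9r, Il15ra and Il21r. Members with none included the T-cell growth factor gene Il2, the eosinophil factor gene Il5, the IL-3 gene Il3 and Il6st, which encodes gp130. The Il6st locus held 3, 2 and 1 regions, all away from its annotated start.

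At 6 h with dTAG, 29 loci had higher counts than at 0 h and 23 lower, that is 40.3% and 31.9% of the members against 29.9% and 36.2% of all coding loci. The total was 525 regions at 6 h against 516 at 0 h, a ratio of 1.02 (0.899 to 1.15), while the ratio over all coding loci was 0.977. A locus was called different when the counts differed by at least 3 regions and at least 1.5 times. By that rule 0 members held more at 6 h (2.42% of coding loci did) and 3 held fewer (4.17%, against 4.01% of coding loci). The IL-10 family cytokine gene Il24 held 3 regions at 6 h against 6 at 0 h. Il12b, the shared subunit of IL-12 and IL-23, held 6 against 9, and Il7r, the IL-7 receptor, 4 against 8. In 1 stretch of Il12b, 44395413 to 44395963 on chromosome 11, 3 regions were listed at 0 h and 1 at 6 h. The highest fold there was 11.3 at 0 h and 16.6 at 6 h. With regions closer than 200 bp merged, Il12b held 1 fewer region at 6 h, Il7r 2 fewer and Il24 3 fewer.

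Few strong regions, those in the upper 50% of each list by −log10 q, differed at 6 h. Of 284 strong regions in member loci at 6 h, 5 were overlapped by no region at 0 h and are called gained (1.76%, 0.574 to 4.06). Of 293 at 0 h, 5 were overlapped by none at 6 h and are called lost (1.71%, 0.556 to 3.94). At least 1 was gained in 5 loci and at least 1 lost in 5, or 6.94% of members each, against 6.36% and 8.89% of coding loci. The gains were at Il4, Il3ra, Il33, Il21r and Il20rb, and the losses at Il15ra, Il17ra, Il11, Il21r and Il13ra1. Start-site regions appeared at 6 h for Il33, the tissue alarmin, with a fold of 3.01, and for Il20rb with 7.54. These 2 members are 2.78% of the list against 1.74% of coding genes. They were absent at 6 h for Il17a, Il24, Il22ra2 and Il17rc, which had folds of 3.02 to 3.78 at 0 h. These 4 are 5.56% against 2.16% of coding genes. For Il24 and Il22ra2, without a transcript start in the table, the region lay near a gene end that may not be the start. Apart from that of Il20rb, all of these start-site regions stood near the lowest fold listed, 3.02 at 0 h and 3.01 at 6 h.

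At 72 h with dTAG, 19 loci held more regions than in the list at 0 h, 39 held fewer and 14 had equal counts. The shares with more and fewer were 26.4% and 54.2%, against 20.7% and 52.3% of all coding loci. The total was 466 at 72 h against 516 at 0 h, a ratio of 0.903 (0.795 to 1.03), and over all coding loci it was 0.854. The covered length was 0.969 of that at 0 h for the members and 0.888 for all coding loci. Called differences ran mostly to fewer regions: 4 members held more (5.56%, against 3.13% of coding loci) and 15 held fewer (20.8%, against 17.3%). The split differed once the lists were of 1 length. In lists cut to the same size, the ratio was 1.11 for the members and 1.06 for all coding loci, and 9 members were called with more and 6 with fewer, against a background of 9.1% and 7.06%.

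**Figure D2:**
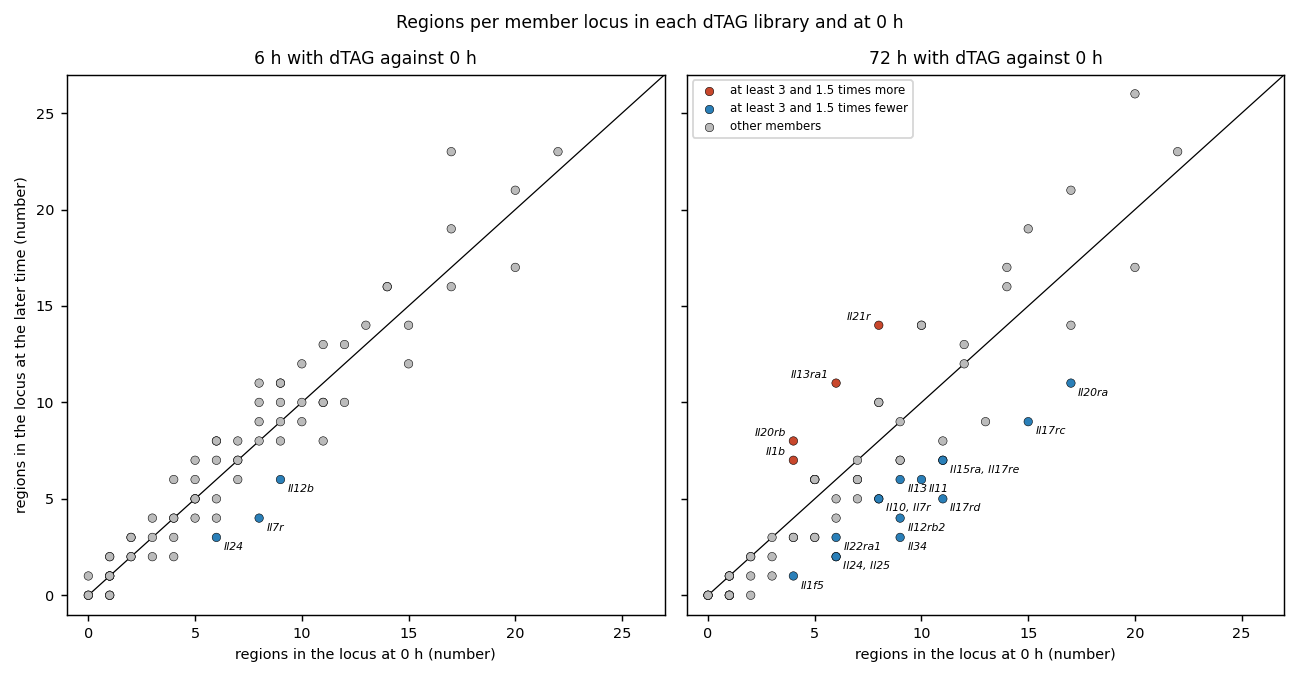
Regions in each of the 72 loci at 6 h (left) and 72 h (right) with dTAG on the vertical axis, against 0 h on the horizontal axis, with the line of equal counts; points can coincide. Loci called with more regions are red and with fewer blue, 0 and 3 at 6 h, 4 and 15 at 72 h.

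The 4 loci called with more regions at 72 h were those of Il1b, Il21r, Il20rb and Il13ra1. Il1b held 4, 4 and 7 regions at 0 h, 6 h and 72 h, and Il20rb, a chain of the receptor for IL-19, IL-20 and IL-24, held 4, 6 and 8. Il21r, the IL-21 receptor, held 8, 10 and 14, and Il13ra1, which pairs with IL-4RA in the receptor for IL-13, held 6, 8 and 11. In each of the 4, the count at 72 h was the highest of the 3 lists. In equal-sized lists these 4 were joined by Il9r, Il4ra, Il10ra, Il18bp and Il4i1, for example Il4ra, the IL-4 receptor, with 19 regions at 72 h against 12 at 0 h.

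The 15 called with fewer were Il24, Il10, Il20ra, Il22ra1, Il13, Il25, Il11, Il1f5 and Il34, and the receptor genes Il7r, Il15ra, Il12rb2, Il17rc, Il17rd and Il17re. Il10 held 8, 9 and 5 regions, Il20ra 17, 19 and 11, and Il22ra1, the IL-22 receptor chain, 6, 8 and 3. Il17rd held 11, 8 and 5, Il15ra 11, 10 and 7, and Il25, also known as IL-17E, 6, 5 and 2. Il11 held 10, 10 and 6, and Il1f5, the antagonist of the IL-36 receptor, 4, 2 and 1. Il17rc and Il17re lie side by side and share regions. They held 15, 12 and 9 and 11, 10 and 7, and with each shared region counted once Il17re held 1 fewer region at 72 h than at 0 h. In equal-sized lists the call remained for Il24, Il17rd, Il25, Il15ra, Il12rb2 and Il34.

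Start-site regions were listed at 72 h and not at 0 h for 2 members, Il1a and Il17c (2.78%, against 0.822% of coding genes). They were listed at 0 h and not at 72 h for 8 (11.1%, against 5.31%): Il13, Il25, Il17re, Il11, Il17a, Il24, Il22ra2 and Il17rc. For Il25, Il24 and Il22ra2, which had no transcript start in the table, the region lay within 1 kb of a gene end that may not be the start. Folds at 0 h of those 8 ran from 3.02 at Il17a to 7.56 at Il13, all under the median of 8.32 over the members' regions at 0 h. Il17c, an epithelial cytokine, had a fold of 3.9 at its start at 72 h.

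Of the 250 strong regions of the members at 72 h, 26 were gained since 0 h (10.4%, 6.91 to 14.9), against 6.86% over all coding loci. Of the 293 strong regions at 0 h, 36 were lost by 72 h (12.3%, 8.76 to 16.6), against 13.3% over all coding loci. At least 1 strong region was gained in 19 loci (26.4%, against 17.0% of coding loci) and at least 1 was lost in 25 (34.7%, against 36.4%). At least 2 were gained in 6 loci (8.33%, against 4.43%) and at least 2 lost in 10 (13.9%, against 12.7%). Il1a and Il16 gained 3 each, and Il15ra and Il34 lost 3 each. The other 4 loci that gained 2 were Il17ra, Il21r, Il10ra and Il4i1b. In equal-sized lists, summed per gene, 36 strong regions were gained and 17 lost. These were 13.8% and 7.14% of the members' strong regions, against 8.22% and 6.43% over all coding loci.

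Overlapping regions of the 3 lists joined into 655 stretches. Of these 303 (46.3%) were listed at all 3 times, 80 at 0 h and 6 h, 72 at 0 h alone, 72 at 6 h alone and 79 at 72 h alone. Another 18 were listed at 72 h and 0 h without 6 h, and 31 at 72 h and 6 h without 0 h. The same shares over all coding loci were not counted, so whether the members differ from them is unknown.

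Among the IL-1 family ligands, Il1a and Il1b lie on chromosome 2, and both held regions at 72 h that were not listed at 0 h. Il1a, at 129299609 to 129310186 on the minus strand, held 10, 12 and 14 regions at 0 h, 6 h and 72 h. A region inside the gene at 129306074 to 129306364, 3783 bp after the start, had a fold of 84.3 at 72 h and 6.78 at 6 h and was not listed at 0 h. A region 804 bp after the start, with a fold of 23.4, and one over the start itself, with a fold of 3.9, were listed at 72 h alone. That region over the start spans 129309962 to 129310033 and reaches into the promoter printed above. A region 10166 bp upstream had folds of 6.05, 6.03 and 55.4. The highest region, 12618 bp after the start and beyond the gene, had folds of 151, 174 and 210 and lies near Ckap2l, whose span overlaps the locus. Each fold is the authors' value for that region against the background of its own list.

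Il1b, at 129364569 to 129371164 on the minus strand, had no other coding gene in its locus. The region 2328 bp upstream of its start had folds of 37.0 at 0 h, 40.7 at 6 h and 116 at 72 h, where it spanned 129373225 to 129373742. The start-site region had folds of 12.9, 6.03 and 28.1. A region 10157 bp upstream was listed at 72 h alone with a fold of 14.1, and one 10230 bp after the start had folds of 4.54, 6.78 and 17.2. All 7 Il1b regions listed at 72 h had their highest fold then, while Il1a was mixed. Its region at 129296180 to 129296355, beyond the gene, had folds of 11.3, 9.04 and 3.9, one 12114 bp after the start had 9.83, 7.54 and 5.46, and regions of fold 4.54 and 5.29 at 0 h were not listed at 72 h. The median fold over each whole list was 6.8, 7.54 and 9.37. Without flanks Il1b held equal counts at 72 h and 0 h, so its called difference lies outside the gene span. With regions closer than 200 bp merged, Il1b held 1 more region at 72 h than at 0 h, against 3 more as deposited.

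**Figure D3:**
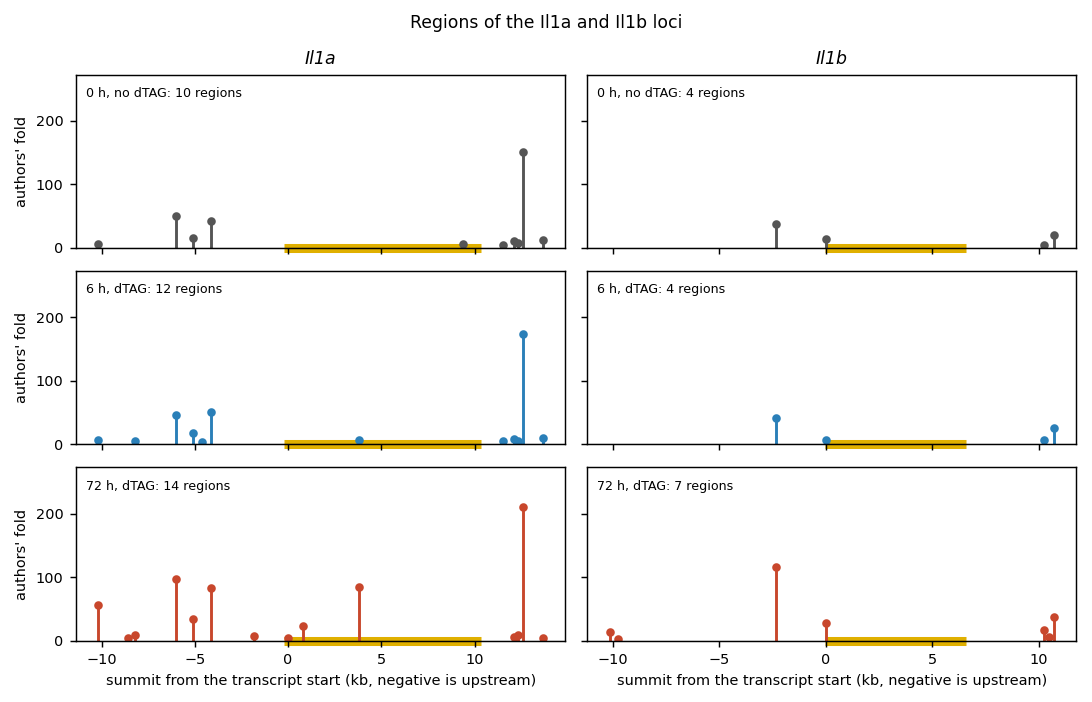
Every region of the Il1a and Il1b loci at 0 h, 6 h and 72 h, placed by the distance of its summit from the transcript start (kb, negative upstream), with the authors' fold as height and the gene span as a yellow bar. The Il1b region about 2 kb upstream stands at 37.0, 40.7 and 116, and inside Il1a a region of 84.3 stands at 72 h with none in that place at 0 h.

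The other IL-1 family loci ran from Il1f8, with no region, to Il18. Il1f9, IL-36 gamma, held 4, 4 and 3, with folds at its start of 12.9, 12.1 and 32.0. Il33 held 6, 7 and 4, and Il1f6, IL-36 alpha, held 1, 0 and 0. Il18 held 9, 10 and 7, and at 2 places 1 region at 72 h covered a pair listed at 0 h. The folds at its start were 9.07, 15.8 and 28.9, so its lowest count came with its highest start-site fold. Il18bp, the soluble binder of IL-18, held 5, 5 and 6 regions, with folds of 22.7, 27.1 and 99.9 at a region 1317 bp upstream of its start. Its locus overlaps Numa1 and Rnf121, and 1, 2 and 2 of its regions lay at ends of other genes. Another region of Il18bp, 943 bp after the start, had folds of 51.5 at 72 h and 3.78 at 0 h and was not listed at 6 h. At Il18 a region beyond the gene, 36345 bp after the start, had folds of 32.5, 42.2 and 80.4.

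The IL-10 family ligands held 18, 16 and 8 regions over 5 genes, and none held more at 72 h than at 0 h. In equal-sized lists they held 8 at 72 h against 14 at 0 h, with 1 locus higher and 4 lower. Il10 itself lost 2 strong regions, at 131018619 to 131018780 on chromosome 1 (fold 12.9 at 0 h) and at 131022767 to 131022865 (fold 8.32). Of its 5 regions at 72 h, 3 had folds of 23.4, 22.6 and 22.6, against 12.9, 6.8 and 21.2 at the same places at 0 h. Il24 held 6, 3 and 2, and its highest region had folds of 18.9, 11.3 and 7.81. Il19 and Il20 held 2, 2 and 0 and 1, 1 and 0, and Il22 held 1 at every time. The 6 receptors of the family held 52, 58 and 52 regions and split evenly, with 3 loci higher and 3 lower at 72 h than at 0 h. In equal-sized lists they held 52 at 72 h against 41 at 0 h.

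Il10ra, the ligand-binding chain of the IL-10 receptor, held 10, 9 and 14 regions at 45253837 to 45269149 on chromosome 9. A region at 45246125 to 45246442, 7559 bp outside the gene, had folds of 28, 41.4 and 101 at 0 h, 6 h and 72 h. At the gene end, a region had folds of 36.3, 37.7 and 55.4. A region at 45250032 to 45250187 was listed at 72 h alone with a fold of 28.1, and another at 45274222 to 45274606 had folds of 10.6, 9.8 and 38.3. Il10rb, its shared partner chain, held 8, 8 and 10 regions with a start-site fold of 55.2, 55.8 and 68.7.

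Il34, another ligand of the CSF-1 receptor of monocytes, had its highest counts before 72 h. It held 9, 11 and 3 regions at 110741829 to 110805949 on chromosome 8, and had no start-site region in any list. The highest at 0 h, at 110790295 to 110790544, had folds of 29.5, 35.4 and 4.68. A region at 110785491 to 110785676 had folds of 26.5, 17.3 and 14.1. Those at 110784222 to 110784460, 110786647 to 110786766 and 110775457 to 110775546 had folds of 14.4, 9.07 and 8.32 at 0 h and were not listed at 72 h. All 3 were listed at 6 h, with folds of 12.8, 14.3 and 11.3. In the same lists Csf1r, the receptor itself, held 8, 8 and 9 regions.

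**Figure D4:**
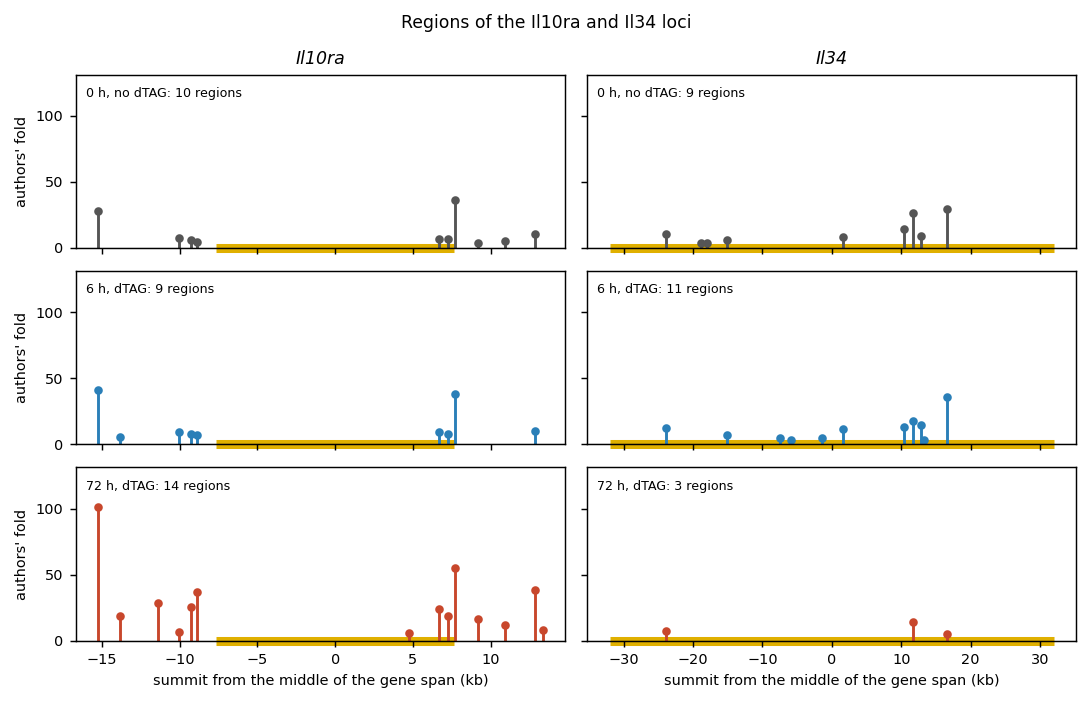
Every region of the Il10ra and Il34 loci at 0 h, 6 h and 72 h, placed by the distance of its summit from the middle of the gene span in genome order (kb), with the authors' fold as height and the gene span as a yellow bar. Il10ra holds 14 regions at 72 h, the highest of fold 101, and Il34 holds 3, the highest of fold 14.1.

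Of the other 5 receptors of the IL-10 family, Il10rb and Il20rb also had higher counts at 72 h than at 0 h, and Il20ra, Il22ra1 and Il22ra2 had lower ones. Il20ra lost weak regions mainly: its start-site region had folds of 57.5, 43.0 and 34.3 and was listed throughout, and 1 strong region was lost. Other regions were listed throughout but stood lower at 72 h, such as that at 19765550 to 19765736, with folds of 18.9, 13.6 and 5.46. With a −log10 q of at least 10, Il20ra held 9, 10 and 6 regions, still a called difference at 72 h. In Il22ra1 the regions at 135751050 to 135751141 and 135758518 to 135758597 on chromosome 4, with folds of 11.3 and 6.8 at 0 h, had no overlap at 72 h. Il22ra2, which encodes a soluble trap for IL-22, held 7, 8 and 6. Il20rb gained a strong region of fold 10.1 at 100458415 to 100458550 on chromosome 9, and its start-site region of fold 7.54 at 6 h had no counterpart in the lists at 0 h or 72 h. That region, at 100486447 to 100486648, covers part of the promoter printed above.

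Among the type 2 cytokine loci, Il13 and Il4 held fewer regions at 72 h than at 0 h and Il5 equal counts. In equal-sized lists the 72 h and 0 h counts were 6 and 6 at Il13, 5 and 4 at Il4 and 2 and 2 at Il5. Il13, a cytokine of type 2 immunity, held 9, 9 and 6 regions. Its start-site region, at 53634648 to 53634752 on chromosome 11, had folds of 7.56 at 0 h and 6.03 at 6 h and was not listed at 72 h. Il4 and Il13 are neighbours whose loci overlap, so several regions are counted in both and their counts are not independent. The shared region at 53627946 to 53628204, the highest in either locus at 0 h and 6 h, had folds of 51.4, 48.2 and 25. Il4 held 7, 6 and 5 regions, with folds of 21.9, 34.7 and 28.9 at its annotated start at 53617338. Its other annotated start, at 53618665, had no region within 1 kb in any list. Il5 held 2, 3 and 2 regions and Il3 held 5, 5 and 3, neither with a start-site region.

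Of the receptors for these ligands, Il3ra, the alpha chain of the IL-3 receptor, held 11, 13 and 8 regions with start-site folds of 115, 171 and 162. Il13ra1 on chromosome X gained a strong region at 36108390 to 36108602, 3621 bp upstream of its start, with a fold of 17.2. Its highest region at 72 h, 17422 bp inside the gene, had folds of 15.1, 20.3 and 39.8. Its start-site region had folds of 15.9, 12.1 and 4.68, so the locus held most regions at the time when its start-site fold was lowest.

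The common gamma chain cytokines held 24, 22 and 20 regions over 6 genes, 12, 10 and 12 of them at Il15, and their 8 receptors held 84, 82 and 81. In equal-sized lists the receptors held 81 regions at 72 h against 70 at 0 h, so the direction of their total turned. Il2rg, the common gamma chain itself, held 7 regions in every list, with start-site folds of 12.9, 16.6 and 49.2. Il2ra, the IL-2 receptor alpha chain CD25, held 17, 16 and 14 and lost 2 strong regions, while its start-site region had folds of 5.29, 5.27 and 18. A region of Il2ra 5598 bp upstream had folds of 22.7, 32.4 and 70.3, and one 21777 bp inside the gene had folds of 48.4, 65.6 and 30.4, so regions of 1 locus differed in opposite directions. Il21r gained strong regions at 125613712 to 125613929 on chromosome 7 with a fold of 18 and at 125622941 to 125623248 with a fold of 10.1, and the region of fold 18 overlapped a weak one at 6 h. Its start-site folds were 12.9, 16.6 and 24.2. Il7r kept its start-site region at folds of 30.2, 37.7 and 32.0 although its count was 8, 4 and 5.

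In the IL-6 and IL-12 families, ligand loci held 50, 48 and 47 regions over 7 genes and receptor loci 73, 76 and 61 over 9. In equal-sized lists the totals were 47 at 72 h against 43 at 0 h for the ligands, and 61 against 60 for the receptors. Il12rb2, the signalling chain of the IL-12 receptor, held 9, 8 and 4 regions, yet the region at its start, 67375732 to 67376405 on chromosome 6 at 72 h, had folds of 67.3, 91.9 and 130. Il6ra gained a strong region of fold 11.7 and lost 2, and its start-site folds were 98.3, 120 and 144. Il12b had a region 4206 bp upstream with folds of 11.3, 16.6 and 39.8, and Il6 held 4, 3 and 3 regions with start-site folds of 43.8, 34.7 and 45.3. The highest member region at 0 h and 6 h lay inside Il31ra, a receptor chain for IL-31, at 112578181 to 112578308 on chromosome 13, with folds of 398, 347 and 180. Its edges were the same at 0 h and 6 h, and because read filtering is unknown, its height is uncertain. Il31ra held 3, 4 and 2 regions and none at its start.

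IL-17 receptor loci held 58, 51 and 47 regions over 5 genes, and 4 of the 5 held fewer at 72 h than at 0 h. In equal-sized lists the total was 47 at 72 h against 42 at 0 h, and only Il17rd held fewer (5 against 9). The exception was Il17ra, which gained strong regions of fold 10.1 at 120480480 to 120480629 on chromosome 6 and of fold 9.37 at 120488810 to 120488926. Another region of Il17ra, at 120470523 to 120471072, had folds of 37.0, 51.2 and 138. Il17rc lost 2 strong regions, of folds 8.32 and 12.1 at 0 h, both downstream of the gene. The 6 IL-17 ligands held 30, 33 and 28 regions, 12, 13 and 13 of them at Il17d and none at 72 h at Il17a or Il17f. In equal-sized lists these ligands held 28 regions at 72 h against 26 at 0 h.

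Il16, with a span of 103210 bp, gained 3 strong regions, at 83647733 to 83647950 (fold 14.8), 83665119 to 83665431 (fold 18) and 83677420 to 83677572 (fold 10.1) on chromosome 7. A region at 83645529 to 83645789 had folds of 10.6, 9.04 and 44.5. The promoter printed above was overlapped in all 3 lists, by a region of fold 43.8, 55.0 and 70.3. Il4i1b held 14, 16 and 17 regions, of which 4, 6 and 8 lay at ends of other genes, and its locus overlaps that of Il4i1.

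To set heights side by side across lists of unequal scale, each locus was ranked by its highest region among the 17174 coding loci with regions in all 3 lists, 62 of them members. At 72 h, 31 members ranked higher than at 0 h and 31 lower, with a median change of 0.13 percentile points against 0.03 over all ranked loci. Il18bp stood at a rank of 56.4 at 72 h against 15.4 at 0 h, and Il1b at 64.5 against 26.3. Il10ra stood at 56.8 against 25.7, the pruritus cytokine gene Il31 at 30.0 against 6.86, Il12rb2 at 70.4 against 48.3 and Il27 at 47.4 against 27.4. Downward, Il13 stood at 19.2 against 36.7, Il17b at 28.3 against 44.1 and Il4 at 21.5 against 36.7. The share of all ranked loci that moved as far was not counted. The highest region at 0 h was the same one for Il13 and Il4. Of the loci named here for rank, only those of Il1b and Il13 overlapped no other coding gene. For the others, which gene the highest region serves was not tested. At 6 h the ranks of Il18bp, Il1b and Il10ra were 18.5, 26.9 and 27.3, near those at 0 h.

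**Figure D5:**
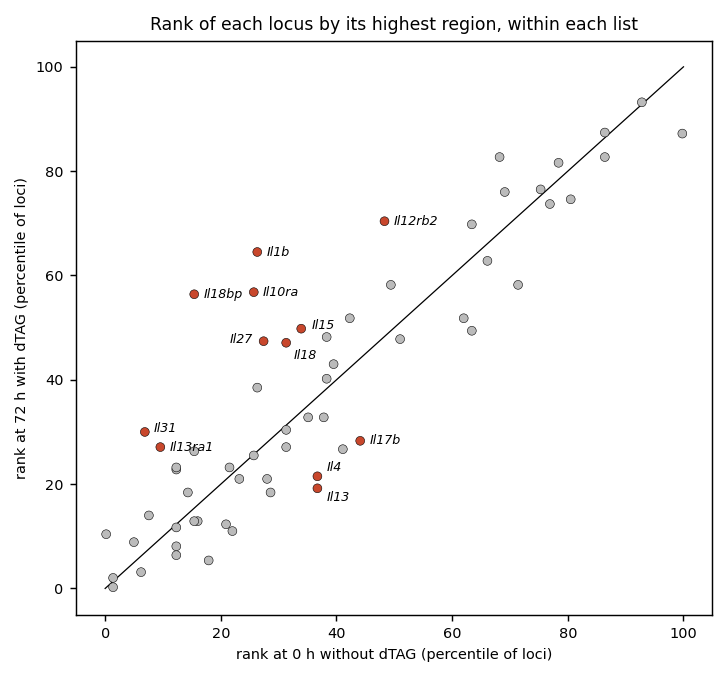
Percentile rank of each of 62 loci by its highest region at 72 h with dTAG (vertical) against 0 h without dTAG (horizontal), ranked among 17174 coding loci within each list; loci that moved by at least 15 points are red and named. Il18bp, Il1b and Il10ra lie farthest above the line of equal rank, and Il13, Il17b and Il4 farthest below it. The share of all ranked loci that moved by at least 15 points was not counted.

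Genes that work with these members but do not carry the name were counted alongside. Of 16 related subunits and ligands, 6 had higher counts at 72 h than at 0 h and 9 lower, with 183, 173 and 159 regions in the order 0 h, 6 h and 72 h. Csf2rb, the beta chain shared by the IL-3, IL-5 and GM-CSF receptors, held 17, 22 and 24 regions, and Csf2, which encodes GM-CSF, held 10, 5 and 3. Of 27 signalling components, 16 held more and 10 fewer at 72 h, with 357, 366 and 368 regions, and all 27 had a start-site region at every time. Irak2, a kinase of the IL-1 receptor pathway, held 30, 30 and 38 regions, Irak3, an inhibitory member of the same family, 17, 20 and 24, and Pias2, an inhibitor of STAT factors, 13, 13 and 7. The shares with more and fewer were 37.5% and 56.2% of the 16, and 59.3% and 37.0% of the 27, against 20.7% and 52.3% of all coding loci. By called differences at 72 h, 0 of the 16 held more and 7 fewer (43.8%), and of the 27 signalling genes 2 held more (7.41%) and 1 fewer (3.7%), against 3.13% and 17.3% of all coding loci.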

How the data were processed

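For each of the 3 libraries the authors deposited 1 peak list on mm10. MACS2 2.2.7, BWA 0.7.17, bedtools 2.30.0, HOMER, limma, edgeR, ChIPseeker, MultiQC 1.10.1 and FastQC 0.11.8 appear in the submitters' processing notes. Those notes record no options, so read filtering, duplicates and shifted read ends remain unknown. Each deposited line gives a fold (the ratio of summit to background), a −log10 p-value and −log10 q-value, and a score, which was not used. The authors' fold ranks and filters regions within its own list only. Folds of 1 place are also printed side by side for the 3 lists, without correction for scale. That scale differs, with a median fold of 6.8 at 0 h, 7.54 at 6 h and 9.37 at 72 h. A higher fold in a later list can therefore reflect that list's scale.

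Regions on chromosomes 1 to 19, X and Y were read with pandas 2.3.3 and scipy 1.17.1 (Python 3.11.15). Sharing at least 1 bp placed a region in a locus or matched it to a region of another list, and a region shared by several loci was counted in every one. Strong regions had a −log10 q of at least 7.82 at 0 h, 9.25 at 6 h and 13.0 at 72 h. Intervals are exact at 95%, from the binomial distribution for shares and from the binomial split for ratios, and cover counting error only. All folds lay on an even grid (100% within 0.02 of a step), and the background assumes that a fold is summit plus 1 over background plus 1. Counting was tested on simulated lists.

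Gene spans and promoters came from RefSeq (GRCm38.p6). Transcript starts were found for 55 members, and 8 promoters with other letters were dropped. Members were named for a called difference, a start-site region at some times, at least 2 strong regions lost or gained, the most regions at 0 h (5 genes) or none. Others were named for rank, height or family after their values were seen. Members, lists and tests were chosen with earlier results of these data known. Alternatives were flanks of 0 kb and 50 kb, a minimum −log10 q or fold of 10, equal-sized lists, merging within 200 bp, counting once, an overlap of 50% and start windows of 500 bp and 2 kb.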

Additional observations from a re-analysis of the deposited data

How the results depend on the processing

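No paired analysis was possible because each group holds 1 library and no test was run. The ratio of 72 h to 0 h, 0.903 as deposited, was 1.04 with a −log10 q of at least 10, 1.17 with a fold of at least 10 and 1.11 in equal-sized lists, with 1.04, 1.12 and 1.06 over all coding loci. Loci called with more regions at 72 h numbered 2 without flanks, 8 above the q minimum, 7 above the fold minimum and 9 in equal-sized lists, against 4 as deposited. Over all coding loci the shares were 3.1%, 6.02%, 7.37% and 9.1%, and the members' shares 2.78%, 11.1%, 9.72% and 12.5%. Those called with fewer numbered 8, 5, 1 and 6 under the same settings (11.1%, 6.94%, 1.39% and 8.33%, against 11.3%, 4.43%, 2.44% and 7.06% of all coding loci), against 15 as deposited. With any difference, 29 loci held more and 25 fewer in equal-sized lists, and 20 held fewer above the fold minimum. These were 40.3%, 34.7% and 27.8% of the members, against 36.5%, 32.1% and 21.5% of all coding loci. Strong regions lost at 72 h, summed per gene, numbered 19 without flanks, 108 with 50 kb flanks, 10 above the fold minimum and 17 in equal-sized lists, against 37. These were 12.8%, 13.1%, 4.72% and 7.14% of the members' strong regions, against 12.6%, 12.1%, 4.41% and 6.43% over all coding loci. Those gained numbered 12 without flanks and 64 with 50 kb flanks, against 27 (9.92% and 9.32%, against 6.59% and 6.05% over all coding loci). Gains numbered 30 above the q minimum, 23 above the fold minimum and 36 in equal-sized lists. These were 11.2%, 9.24% and 13.8%, against 6.99%, 5.38% and 8.22% over all coding loci. Above the q minimum 26 were lost (10.0%, against 7.82%), so gains outnumbered losses under these settings, unlike as deposited. At 6 h, 2 loci were called with more regions without flanks, in equal-sized lists and after merging, and those called with fewer numbered 1 without flanks or after merging and 0 above either minimum. Over all coding loci 1.74%, 2.29% and 2.17% were called with more, and 2.68%, 3.22%, 0.567% and 0.302% with fewer. Any difference at 6 h gave 18 loci with more and 14 with fewer without flanks, 35 with fewer with 50 kb flanks, and 19 with more above either minimum. The 19 were 26.4% of the members, against 27.9% of all coding loci above the q minimum and 24.6% above the fold minimum. For the other flanks the share over all coding loci was not counted. Strong regions lost at 6 h numbered 2 without flanks and above the q minimum, 14 with 50 kb flanks, 0 above the fold minimum and 3 after merging, and those gained 2, 2, 10 and 0 under the first 4 of these, with 1 in equal-sized lists. The shares lost were 1.35%, 0.772%, 1.7%, 0% and 1.2%, against 2.16%, 0.667%, 2.07%, 0.128% and 1.01% over all coding loci. The shares gained were 1.43%, 0.749%, 1.28%, 0% and 0.422%, against 1.53%, 0.948%, 1.52%, 0.198% and 0.63%. Start-site regions at 0 h numbered 29 above the q minimum, against 44, and the same count over all coding genes was not made. The difference at Il7r at 6 h turned to 1 more region above the q minimum and 2 more above the fold minimum. At 72 h Il10 turned to 2 more with 50 kb flanks and 1 more above the fold minimum, Il1f5 to 1 more with 50 kb flanks and Il17re to 2 more in equal-sized lists. Many calls of single genes did not hold: of 154 values of single genes under the alternatives, 72 no longer passed the call rule and 6 reversed. That of Il12b at 6 h was lost in 6 of 7 alternatives, and those of Il1b and Il11 at 72 h and Il24 at 6 h in 5, while that of Il34 held in all 7 and that of Il13ra1 in 6. In all, 43 values over the members moved and 68 did not. The cause of the moves was not tested, except that stricter minimum values leave fewer regions to count and wider flanks more. The list at 72 h is the shortest, and regions under 3 fragments at the summit are not seen at any time.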
